A study of Mus musculus with 4 samples.

Results

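The cells described here are mouse bone marrow progenitors that carry no transcript of 3 lineage genes and lack the full set of 3 stem cell genes. They were chosen from lineage-negative, Sca-1-positive, c-Kit-positive (KLS) cells by measured transcripts, read as unique molecular identifiers (UMIs, 1 per captured RNA molecule). A cell needed at least 500 detected genes, at most 10% of UMIs from mitochondrially encoded genes, and a barcode found in neither stromal library. It had to hold 0 UMIs of Dntt (lymphoid), Pf4 (megakaryocyte) and Klf1 (erythroid). Its summed Mpo, Elane, Prtn3 and Ctsg UMIs (neutrophil granule genes) had to be under 0.4% of its total, and Hlf, Mecom and Procr (the stem triad) could not all be detected. The rule found 3057 progenitors among 10351 eligible KLS cells, of 12355 barcodes in the series. Of these, 933 of 3193 eligible cells came from the control library (29.2%) and 2124 of 7158 from the STAT5 knockout (KO) library (29.7%).

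The study profiled KLS cells and stromal cells by droplet sequencing (10x Chromium, version 3 chemistry) in 4 libraries, 1 per cell population and genotype. KO mice carried Vav1-Cre/+ with both Stat5ab alleles floxed (STAT5abfl/fl), and control mice carried Vav1-Cre/+ with intact alleles (STAT5ab+/+), so every animal had the Cre transgene. The Vav1 promoter drives Cre in blood cells. Marrow came from the femurs and tibias of 4 mice aged 8 to 12 weeks, was depleted of lineage-positive cells and was sorted. The labels do not say how the 4 mice were divided or pooled, and give no batch, and the design text reports some CD45-negative cells in the KLS sort. Xist, transcribed in female cells, had a UMI in 48.02% of control and 43.8% of KO progenitors, and the Y-linked Ddx3y in 31.0% and 26.4%, so each library held cells of both sexes.

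Multipotent progenitors lie between the hematopoietic stem cell and cells committed to lymphoid, myeloid, megakaryocyte or erythroid fates, and Cd34, Cd48 and Flt3 are their usual markers. STAT5a and STAT5b are signal transducers that Janus kinases activate downstream of cytokine receptors. They enter the nucleus as dimers, bind a palindromic DNA element and act on feedback inhibitors (Cish, Socs2, Socs3), survival kinases (Pim1, Pim2), D-type cyclins and the repressor Bcl6.

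The element is shown here for the 3 genes of the STAT5 target and feedback list whose promoter windows held it, because Cish, Socs3 and Bcl6 are followed below. The pattern searched was TTCNNNGAA, which reads the same on both strands, in RefSeq windows of 300 bases (GRCm38.p6). It was found in 8.30% of 32851 windows and for 9.55% of 27025 genes, and for 3 of the 16 list genes that had a window, out of 22 on the list. Each line is written 5′ to 3′ on the gene's strand, with the matched element in capitals. A match describes letters in the window and not a binding site.
Cish, chr9:107296657-107296680, plus strand, first element at the annotated start: ttTTCCTGGAAagTTCTTGGAAat
Socs3, chr11:117969510-117969522, minus strand, before the start: ccTTCTTAGAAgg
Bcl6, chr16:23988960-23988972, minus strand, before the start: agTTCTCAGAAtt
Bcl6, chr16:23981441-23981453, minus strand, first of 3 matches before its other annotated start: gcTTCCTGGAAag
Cish alone of the 3 had a pair of elements within 24 bases, the first beginning at its annotated start.

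With 1 library per genotype there is no replicate, and no difference below was tested between genotypes. Levels are UMIs summed over all progenitors of a library and scaled to a total of 1000000 UMIs (CPM). Ratios carry 95% intervals (exact binomial, conditional on both counts), and shares carry 95% Clopper-Pearson intervals. These intervals cover counting error only, not differences between animals or preparations. Control progenitors were sequenced deeper, at a median of 12282 UMIs and 3771 genes per cell against 7938.5 UMIs and 2965 genes in KO, with 12901759 and 19449862 UMIs in all. Their median mitochondrial share was 4.54%, against 2.93% in KO. The 2 KLS libraries shared 290 barcodes, which 6 control and 1 KO progenitors carried. Genes are ranked by the log2 ratio of KO over control CPM after adding 10 CPM to each.

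Stat5a and Stat5b transcripts were low but not absent in the KO progenitors. Stat5a stood at 86.0 CPM in control and 11.3 CPM in KO progenitors. Stat5b stood at 64.4 and 7.40 CPM. Together they gave 150.4 CPM in control and 18.7 CPM in KO, a log2 ratio of -3.01 (95% interval -3.18 to -2.85), or 12.4% of control. The library labelled KO was the low one. A tag near the 3′ end checks a deletion only where it removes or destabilizes the transcript.

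A minority of KO progenitors held a Stat5 transcript. A Stat5a or Stat5b UMI was found in 757 of 933 control progenitors (81.1%) and in 195 of 2124 KO progenitors (9.18%). In KO, 97 of them had 1 UMI, 56 had 2, 40 had 3 to 5 and 2 had 6 or more, and the part of free RNA in the single UMIs was not tested. The share with a UMI was 23.8% among KO cells holding the whole stem triad and 2.79% among KO cells with Dntt, at median depths of 11291 and 10864 UMIs. Within the progenitors, KO Stat5 was 25.3% of control in cells with under 10 UMIs of a G2/M gene list, and 8.90% in cells with 25 or more, both counted after thinning each cell to 4200 UMIs.

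KO progenitors with a Stat5 UMI differed from the other 1929 in named genes, a split made after the values had been seen. Vwf, a megakaryocyte- and stem-associated clotting factor, stood at 8.37 CPM in control, 144.2 CPM in KO progenitors with a Stat5 UMI and 8.68 CPM in those without. Socs2, a feedback inhibitor of cytokine signaling, stood at 11.9, 65.6 and 3.91 CPM in the same order. Cish, the feedback inhibitor with the paired element shown above, stood at 13.8, 31.6 and 5.98 CPM. The KO cells without a Stat5 UMI were thus below control for both inhibitors, 3.03-fold for Socs2 (2.26 to 4.10) and 2.31-fold for Cish (1.80 to 2.97), while the cells with a UMI were above it. Over all KO progenitors together, Socs2 stood near control, at 10.4 CPM.

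Other genes, some of them stem-associated, were also highest in the KO cells with a Stat5 UMI. Slamf1, the SLAM receptor CD150, stood at 11.5 CPM in control, 47.6 CPM in KO cells with a Stat5 UMI and 6.33 CPM in those without. Mycn, a transcription factor of stem and progenitor cells, stood at 56.8, 204.4 and 38.1 CPM. Plxdc2, a transmembrane protein gene, and Gda, which encodes guanine deaminase, were lowest in KO cells without a UMI. Plxdc2 stood at 16.7, 36.9 and 1.96 CPM, and Gda at 7.29, 46.1 and 2.24 CPM. Aldh1a1, which encodes a retinaldehyde dehydrogenase, stood at 10.5, 99.1 and 9.72 CPM, so KO cells without a UMI lay near control.

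The progenitor markers were lower in the KO cells with a Stat5 UMI. Cd34 stood at 519.9 CPM in control, 228.2 CPM in KO cells with a UMI and 466.1 CPM in those without. Flt3, the FLT3 ligand receptor, stood at 89.5, 26.2 and 77.8 CPM. Cd48 stood at 186.2, 98.1 and 186.6 CPM, so the KO cells without a UMI lay at the control level. The lymphoid chromatin organizer Satb1 (98.0, 34.0 and 93.0 CPM) was also lowest in the KO cells with a UMI. Over all genes compared between KO cells with and without a UMI, 0.726% were past 2-fold higher and 0.225% past 2-fold lower.

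For Hmga2, Ebi3 and Gm47283, KO cells with and without a Stat5 UMI lay close together. Hmga2 stood at 46.8 CPM in control and at 18.9 and 18.8 CPM in KO cells with and without a UMI. Ebi3 stood at 34.6, 8.74 and 10.2 CPM, and Gm47283 at 634.7, 69.4 and 77.3 CPM. For these 3 genes the interval of the fold between KO cells with and without a UMI included 1. Ccnd1 stood at 18.9, 69.0 and 45.6 CPM, above control in both and 1.51-fold higher in KO cells with a UMI than in those without (1.26 to 1.81).

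**Figure D1:**
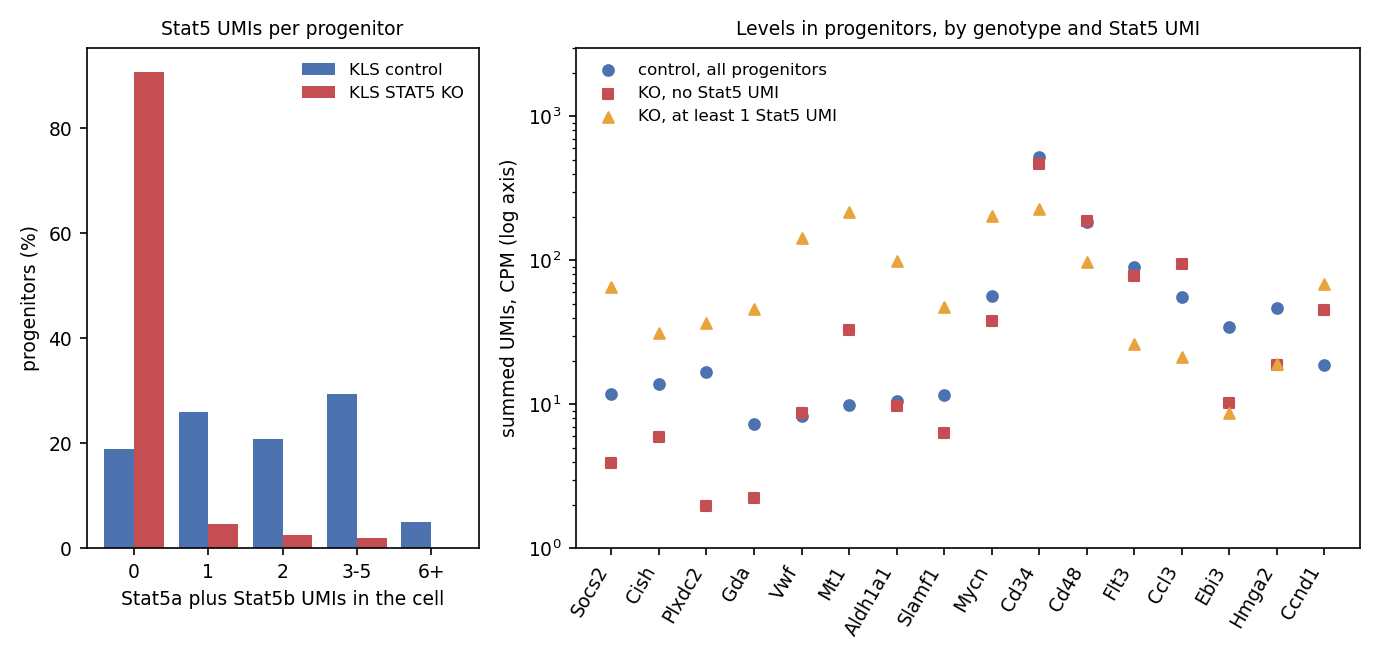
Left, the share of progenitors (%) by the number of Stat5a plus Stat5b UMIs in the cell, in the control and KO libraries. Right, summed UMIs as CPM (log axis) of 16 genes in all control progenitors, KO progenitors without and KO progenitors with a Stat5 UMI; Vwf is at 144.2 CPM in the last group and at 8.37 and 8.68 CPM in the others.

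The split was also set against depth and against the control library. KO cells with a UMI had a median of 9322 UMIs and those without 7785, with mitochondrial shares of 3.06% and 2.92%. After thinning to 4200 UMIs, 33.7% of KO cells with a Stat5 UMI had a Vwf UMI, against 2.67% of those without. For Socs2 the shares were 23.2% and 1.39%, for Slamf1 19.5% and 2.49%, and for Flt3 8.95% and 25.3%. In control, the 757 cells with a Stat5 UMI did not exceed the 176 without. Socs2 stood at 10.9 CPM in the former and 19.0 CPM in the latter, Cish at 11.9 and 27.2 CPM, and Vwf at 8.30 and 8.87 CPM. Among control cells, 0.793% of genes were past 2-fold higher and 0.0869% past 2-fold lower with a UMI, where median depth was 13700 against 8137.5 UMIs. In KO cells with the whole stem triad, Vwf stood at 166.4 CPM with a Stat5 UMI and 31.7 CPM without, beside 8.61 CPM in control cells with the triad. Socs2 stood at 91.0 and 17.0 CPM, beside 15.9 CPM in control. There the cells without a UMI were 3.68-fold above control for Vwf (2.81 to 4.86) and near it for Socs2 (1.07-fold, 0.804 to 1.42), unlike the progenitors. Why some KO cells held Stat5 transcripts was not tested.

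The progenitor share of KLS cells depended on depth. As counted, it was 29.2% (27.6% to 30.8%) in control and 29.7% (28.6% to 30.7%) in KO. With every cell thinned to 4500 UMIs it was 51.2% (49.5% to 53.0%) in control and 41.8% (40.6% to 43.0%) in KO. The thinning left out 24 shallower control cells and 660 KO cells. Thinning can move a cell into the class by losing its UMIs of Dntt, Pf4 or Klf1, or of a triad gene. The part of each was not tested. Triad-positive cells, which hold Hlf, Mecom and Procr, made up 17.0% and 6.05% as counted, and 4.17% and 2.26% when thinned. This class had no limit on Dntt, Pf4, Klf1 or granule UMIs. For 264 of its 542 control and 236 of its 433 KO cells, the triad was the only ground for exclusion. Cells with Dntt and without the whole triad made up 42.5% and 52.0%, and 34.8% and 43.7% when thinned. Cells rich in granule transcripts made up 1.44% and 4.36%, and 2.37% and 5.88% when thinned.

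**Figure D2:**
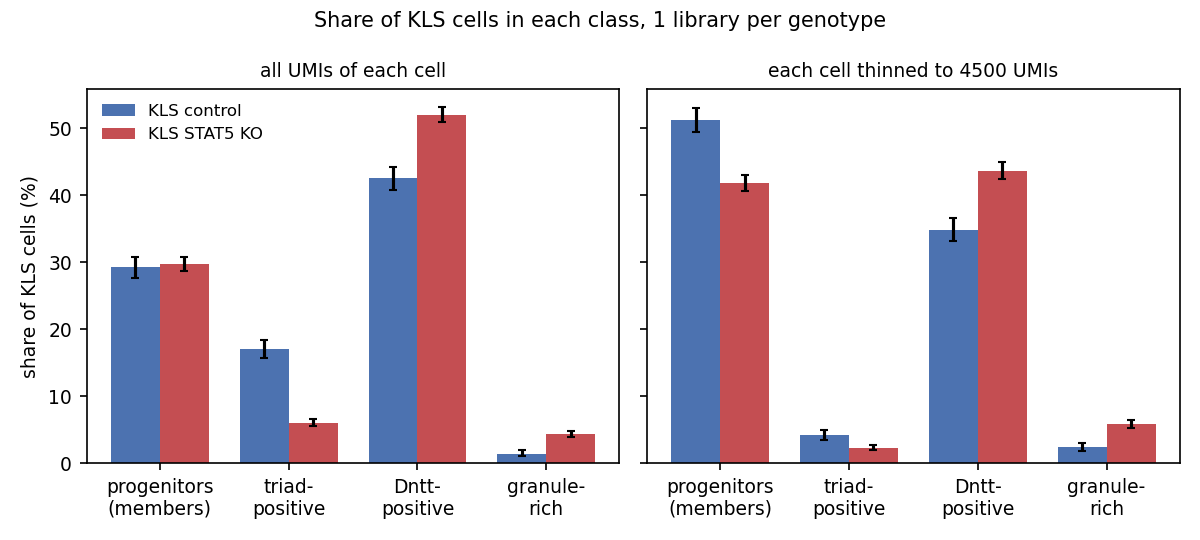
Share of eligible KLS cells (%) in 4 classes, for the control and KO libraries, with all UMIs (left) and with each cell thinned to 4500 UMIs (right); bars are shares and whiskers exact 95% binomial intervals for counting error. The progenitor bars are level at 29.2% and 29.7% on the left and apart at 51.2% and 41.8% on the right.

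The thresholds of the rule passed through continuous values. In control, 28 progenitors had a granule share from 0.3% to under 0.4%, and 10 otherwise eligible cells lay from 0.4% to under 0.5%. In KO the numbers were 137 inside and 96 outside. Holding all 3 triad genes alone kept out 264 control and 236 KO cells, and a single UMI of Dntt, Pf4 or Klf1 kept out 376 and 977. Of the control progenitors, 59.8% held 2 triad genes, 33.3% held 1 and 6.86% held 0. Of the KO progenitors, 40.1% held 2, 42.75% held 1 and 17.2% held 0.

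The markers of multipotent progenitors were present, and none of Cd34, Cd48 and Flt3 passed the 0.32 limit between genotypes. Cd34, a sialomucin of the cell surface, was at 519.9 CPM in control and 440.9 CPM in KO (fold 0.848, 0.821 to 0.876). Cd48, a SLAM-family ligand, was at 186.2 and 177.2 CPM (fold 0.952, 0.903 to 1.00). Flt3 was at 89.5 and 72.3 CPM (fold 0.808, 0.747 to 0.874). At 4200 UMIs, a Cd34 UMI was found in 81.8% of control and 78.1% of KO progenitors, Cd48 in 41.2% and 43.7%, and Flt3 in 28.1% and 23.7%. In Klf1-positive cells of the erythroid lineage, where Flt3 is not a marker, its share was 11.4% and 10.5%. The share was 24.9% and 14.4% in Pf4-positive and 15.2% and 21.8% in granule-rich cells. It was 34.4% and 27.3% in triad-positive and 65.8% and 55.9% in Dntt-positive cells, where the Flt3 level was 141.6 and 97.7 CPM and 262.9 and 203.7 CPM. Kit (241.4 and 216.2 CPM) and Ly6a, the Sca-1 gene (67.8 and 59.2 CPM), belong to the sort, and Ptprc, the leukocyte antigen CD45, was at 149.0 and 159.5 CPM. Of 22 measured KLS surface markers, 0 were past the 0.32 limit in either direction.

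A few cells carried transcripts of other lineages. Stromal markers summed to 2.25 CPM in control and 3.44 CPM in KO, and Col3a1, Lum and Pdgfra were at 0 in both. Mast cell and basophil markers summed to 81.4 and 168.9 CPM, with 0 of 7 at 0. Of the UMIs of 6 basophil and mast cell protease or receptor genes, 4 control cells held 89.4% and 10 KO cells held 89.5%. Plasma cell transcripts were in 2 KO cells and 0 control cells with at least 10 UMIs: Igkc was at 0 and 448.9 CPM, Jchain at 0.465 and 75.8 CPM, and Ighm at 47.9 and 225.3 CPM. Erythroid markers summed to 20.1 and 48.4 CPM. B and plasma cell markers summed to 32.6 and 105.5 CPM, with Ms4a1 at 0 in both.

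Between genotypes most genes lay close together. Among 10468 ranked genes with at least 100 UMIs and a UMI in at least 2% of progenitors of the higher library, 9 (0.086%) were past 2-fold higher in KO and 6 (0.0573%) past 2-fold lower. A smaller limit, a log2 ratio of 0.32, was passed by 314 of 10495 genes in the higher direction (2.99%) and by 234 in the lower (2.23%), and counts over gene lists below use that limit. The median log2 ratio over all genes was 0.02. Without 5 control and 19 KO cells rich in transcripts of other lineages, 6 were past 2-fold higher and 6 lower. With cells kept whose barcodes also occur in a stromal library, 15 were past 2-fold lower. The 12 highest-ranked genes were Mt1, Mcpt8, Car1, Mt2, Gm42418, AY036118, Dhx40, Hspa1a, Ccnd1, Cuedc1, Hspa1b and Lars2, and the lowest-ranked included Gm47283, Mid1, Ebi3, Wfdc17 and Hmga2.

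Of the higher genes, Ccnd1 is the D-type cyclin that drives entry into the cell cycle. Ccnd1 (chr7:144929931-144939925, minus strand, GRCm38) was at 18.9 CPM in control and 48.1 CPM in KO, 2.54-fold higher (2.20 to 2.94). It was higher in cells with 25 or more G2/M UMIs (9.60 and 29.6 CPM) and in cells with under 10 (23.8 and 68.7 CPM). In triad-positive cells Ccnd1 was at 19.6 and 52.3 CPM, in cells with Dntt at 26.7 and 58.9 CPM and in granule-rich cells at 10.3 and 57.8 CPM, so KO was above control in each class. Cuedc1, a gene of little-known function, was at 33.9 and 77.4 CPM. The helicase gene Dhx40 was at 10.8 and 33.6 CPM.

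The metallothionein genes Mt1 and Mt2, whose products bind zinc and copper, were unevenly spread. Mt1 was at 9.92 CPM in control and 52.2 CPM in KO, 5.26-fold higher (4.37 to 6.37), and Mt2 at 0.543 and 14.7 CPM. The richest 1% of KO cells held 32.7% of the Mt1 UMIs and 56.6% of the Mt2 UMIs. Mt1 stood at 216.6 CPM in the KO cells with a Stat5 UMI and 32.7 CPM in the others. In cells with Dntt it was at 13.3 and 20.7 CPM. The mast cell protease Mcpt8 (5.97 and 37.0 CPM) and the carbonic anhydrase Car1 (2.64 and 25.04 CPM) belonged to few cells, with 88.1% and 91.6% of their KO UMIs in the richest 1%. Gm42418 (465.1 and 1084 CPM) and AY036118 (12.3 and 39.2 CPM) overlap on opposite strands of chromosome 17, and their reads cannot be told apart without a strand rule.

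Among the lower genes, Gm47283 and Mid1 ranked lowest once 10 CPM was added. Without that addition Gm20234, an antisense gene at 13.1 and 0.514 CPM, had a larger fold, 25.5-fold lower (13.5 to 54.1). Gm47283 (chrY:90784738-90816464, plus strand) was at 634.7 CPM in control and 76.5 CPM in KO, 8.30-fold lower (7.85 to 8.78). Mid1 (chrX:169685199-170005736, plus strand), a ubiquitin ligase gene at the pseudoautosomal boundary, was at 23.7 and 2.06 CPM, 11.5-fold lower (8.28 to 16.5). Both had the same direction in triad-positive, Dntt-positive and granule-rich cells, where Gm47283 was 7.93-fold, 7.18-fold and 7.74-fold lower. Beside them, Xist was at 1113 and 866.5 CPM and Ddx3y at 35.7 and 41.0 CPM, and the part of sex in these ratios was not tested.

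Ebi3 and Hmga2 were low in KO throughout the progenitors. Ebi3, a subunit of the cytokines IL-27 and IL-35, was at 34.6 CPM in control and 10.0 CPM in KO, 3.45-fold lower (2.91 to 4.10). It was at 27.4 and 8.29 CPM in cells with 25 or more G2/M UMIs, and at 47.8 and 12.1 CPM in cells with under 10. Hmga2, an architectural chromatin protein of fetal and self-renewing stem cells, was at 46.8 and 18.8 CPM, 2.49-fold lower (2.18 to 2.84). In cells with Dntt Hmga2 was at 64.4 and 20.2 CPM. Among 33 measured multipotency transcription factors, Hmga2 was the 1 gene past the 0.32 limit, and Gata2 (131.8 and 155.7 CPM), Spi1 (131.9 and 125.0 CPM) and Lmo2 (776.5 and 680.6 CPM) lay near control. The protease inhibitor-like Wfdc17 was at 52.5 and 20.1 CPM.

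**Figure D3:**
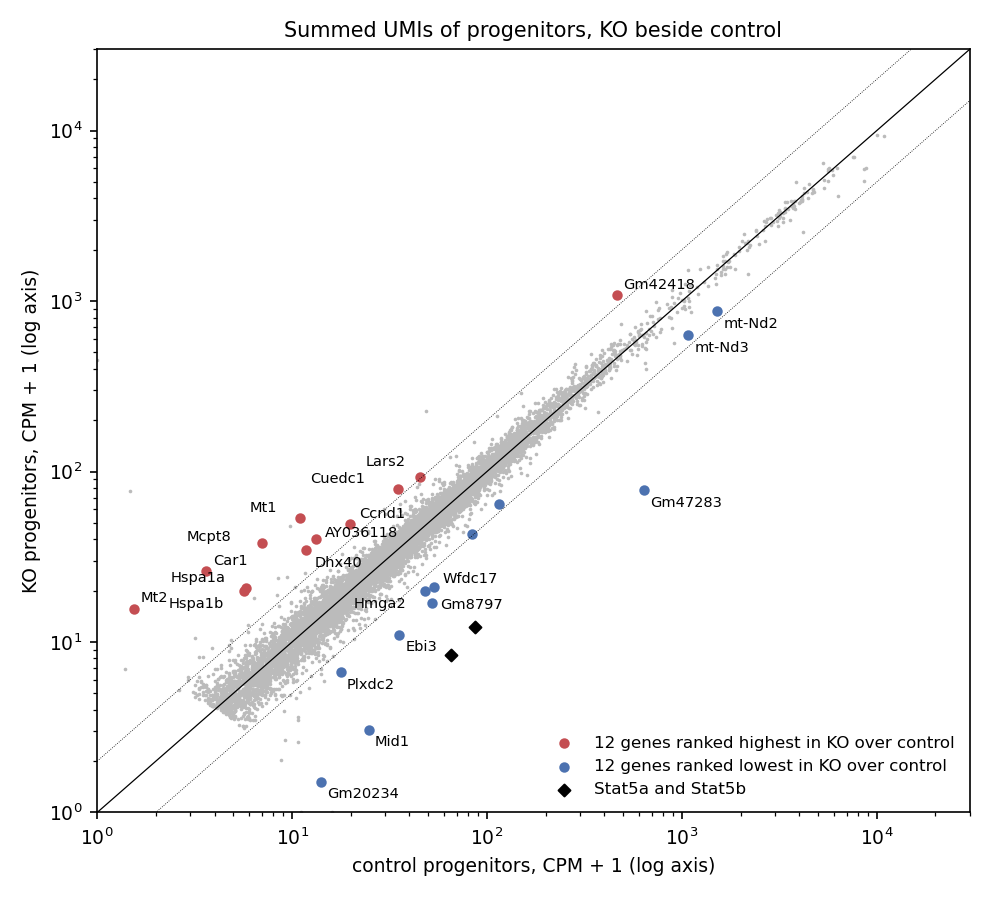
Each point is a gene, with summed UMIs of control progenitors (x) and KO progenitors (y) as CPM plus 1, on log axes; the solid line marks equality and the dotted lines 2-fold. The coloured points are the 12 highest-ranked and 12 lowest-ranked genes, most of them named, and the diamonds are Stat5a and Stat5b; Gm47283 lies farthest below the line among abundant genes.

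STAT5 target and feedback genes went both ways. Of 20 measured, 4 were past the 0.32 limit higher and 2 past the 0.32 limit lower, with a median log2 ratio of -0.04 beside 0.02 over all genes. Higher were Ccnd1, the kinase Pim1 (273.3 and 383.0 CPM), the inhibitor of cytokine signaling Socs3 (11.1 and 19.0 CPM) and the cell cycle inhibitor Cdkn1a (23.5 and 42.4 CPM). Lower were Cish (13.8 and 8.69 CPM) and the kinase Pim2 (20.7 and 13.9 CPM). In the 64 control and 365 KO cells with none of the triad the log2 ratio of Cish was 0.10, and in cells with 25 or more G2/M UMIs that of Pim2 was 0.08. Of the 3 genes with the element in their promoter windows, Cish was lower, Socs3 was higher, and Bcl6 was at 5.27 and 6.84 CPM with an interval of its fold from 0.962 to 1.76. The survival gene Bcl2l1 was at 17.0 and 14.5 CPM, and Ccnd2 at 252.4 and 222.5 CPM. Of 5 other STAT genes measured, 0 were past the limit, with Stat3 at 96.5 and 110.0 CPM. Of 24 cytokine receptor and Janus kinase genes, 1 was past the 0.32 limit lower and 1 higher, the latter Csf3r, the G-CSF receptor (48.5 and 65.9 CPM).

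Lineage genes were split within their lists. Of 30 measured stem cell genes outside the triad, 3 were past the 0.32 limit higher and 6 lower, with a median of -0.03. Vwf (8.37 and 23.03 CPM) and the stress protein gene Nupr1 (5.35 and 17.2 CPM) were among the higher, and the cell cycle inhibitor Cdkn1c (15.5 and 9.61 CPM) and Pdzk1ip1 (60.1 and 43.1 CPM) among the lower. As given above, the Vwf rise lay in KO cells with a Stat5 UMI, and the other KO cells stood near control. Of 24 megakaryocyte and erythroid genes 6 were higher and 2 lower, the latter including the carbonic anhydrase Car2 (651.5 and 400.4 CPM). Selp, the platelet P-selectin gene, was at 19.7 and 35.2 CPM. Of 21 myeloid genes 3 were higher and 3 lower. The granule protein gene Nkg7 was at 174.6 and 250.2 CPM, and the inhibitory receptor Clec12a at 25.7 and 12.6 CPM. Irf8, a regulator of monocyte and dendritic fate, was at 26.9 and 17.2 CPM. Of 16 lymphoid genes, Ighm was higher, mostly from the plasma cell transcripts above (85.2% of KO UMIs in the richest 1% of cells), and Ltb (69.2 and 45.5 CPM) and Lsp1 (108.2 and 74.3 CPM) were lower.

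Chaperone genes were higher in KO as a list. Of 21 measured heat-shock chaperone genes, 20 had a ratio above 0 and 8 were past the 0.32 limit higher, with a median log2 ratio of 0.26. Hsph1, a nucleotide exchange factor, was at 42.7 CPM in control and 79.9 CPM in KO, Hspa5, the chaperone of the endoplasmic reticulum, at 280.7 and 428.7 CPM, and Hsp90aa1 at 1069 and 1523 CPM. The inducible Hspa1a (4.81 and 19.7 CPM) and Hspa1b (4.65 and 18.9 CPM) are near-identical copies, and reads could be split between them. The list's median was 0.20 in triad-positive, 0.30 in Dntt-positive and 0.49 in granule-rich cells, beside 0.08 over all genes in the last. Of 21 immediate early genes, whose transcripts appear quickly on handling or stimulation, 4 were higher and 1 lower, with Jun at 386.5 and 514.1 CPM and Fos at 132.4 and 173.1 CPM.

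Of 35 measured interferon-stimulated genes, 25 had a ratio below 0, 11 were past the 0.32 limit lower and 0 past the 0.32 limit higher, with a median of -0.16, and of -0.0032 in the cells with none of the triad. The antiviral chaperone Rtp4 was at 60.6 and 36.0 CPM, the oligoadenylate synthetase-like Oasl2 at 52.6 and 31.4 CPM, and Irf7, the regulator of type I interferon, at 23.4 and 12.9 CPM. Bst2, which tethers virions, lay near control (130.6 and 136.0 CPM). The list's median was -0.18 in triad-positive and -0.17 in Dntt-positive cells. In granule-rich cells it was 0.04 over 17 measured genes, beside 0.08 over all genes. Among MHC genes, the class II genes H2-Ab1 (43.9 and 82.9 CPM), H2-Aa (17.0 and 31.7 CPM) and H2-Eb1 (9.38 and 20.1 CPM) and the invariant chain Cd74 (28.4 and 38.8 CPM) were higher, and the class I genes H2-K1 and H2-D1 lay near control. Dendritic cell markers, with which class II genes are shared, summed to 447.7 and 435.0 CPM, and their part was not tested.

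Chemokine genes were few but had the highest list median, 0.41 over 6 measured. Ccl9 was at 63.6 CPM in control and 120.5 CPM in KO, Ccl3 at 55.9 and 86.5 CPM, and Ccl4 at 59.3 and 85.8 CPM. Wfdc17, a whey acidic protein-like gene in the same list, was lower. In the cells with none of the triad the median was -0.15 and the ratio of Ccl9 -0.04. The list's median was 0.11 in triad-positive, 0.05 in Dntt-positive and 0.65 in granule-rich cells. Ccl9 had the same direction in triad-positive (44.1 and 113.2 CPM), Dntt-positive (79.9 and 163.5 CPM) and granule-rich cells (215.6 and 342.0 CPM). Ccl3 stood at 21.4 CPM in KO cells with a Stat5 UMI and 94.2 CPM in those without.

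Respiratory genes were split by genome. Of 13 mitochondrially encoded genes, 8 were past the 0.32 limit lower and 3 higher, with a median of -0.54. The cytochrome oxidase subunit mt-Co1 was at 8587 and 5971 CPM and the complex I subunit mt-Nd2 at 1516 and 872.9 CPM, while mt-Nd4l, also of complex I, was at 152.5 and 242.4 CPM. Of 76 nuclear oxidative phosphorylation genes, 64 had a ratio above 0, 5 were past the 0.32 limit higher and 0 lower, with a median of 0.14. Cholesterol synthesis genes had a median of -0.12 over 20, with 2 past the 0.32 limit lower, among them the sterol oxidase Msmo1 (36.4 and 21.2 CPM). Glycolysis genes (median 0.00 over 20) and cytosolic ribosomal protein genes (median -0.01 over 81) lay at the all-gene level.

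**Figure D4:**
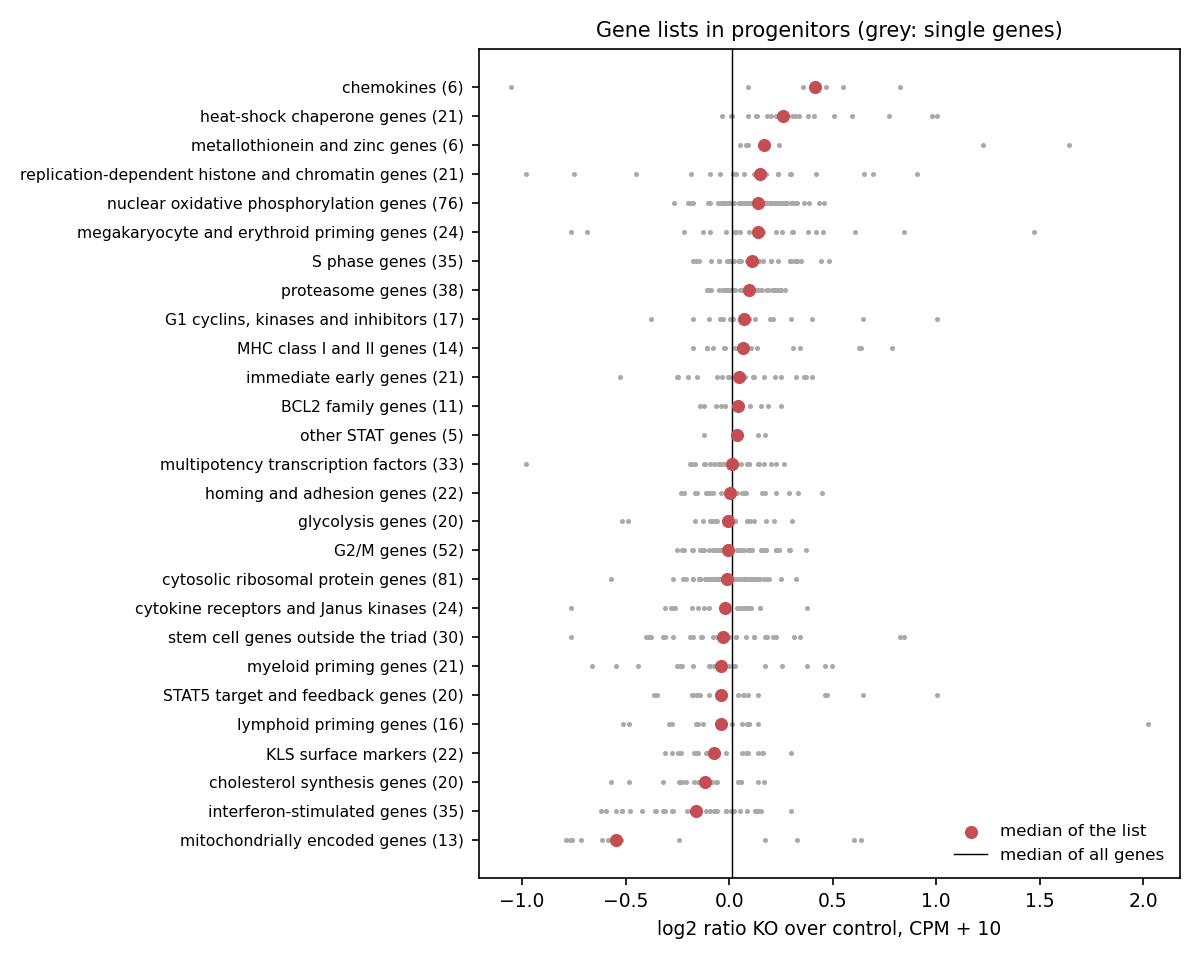
Log2 ratio of KO over control (CPM plus 10) in progenitors for 27 gene lists, with the number of measured genes in brackets; grey points are genes, red points list medians and the line the median of all genes. Chemokines (0.41) and heat-shock chaperones (0.26) lie at the top, and interferon-stimulated (-0.16) and mitochondrially encoded genes (-0.54) at the bottom.

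More KO than control progenitors held many mitotic transcripts. At 4200 UMIs per cell (17 control and 209 KO cells were shallower), the median count over 52 G2/M genes was 11 UMIs in 916 control and 20 UMIs in 1915 KO progenitors. At least 25 such UMIs were found in 32.8% of control (29.7% to 35.9%) and 45.6% of KO progenitors (43.4% to 47.9%), a difference of 12.9 points (9.02 to 16.7). Fewer than 10 were found in 44.4% and 29.3%. The limits of 25 and 10 were chosen after the distribution was seen, and 67 control and 190 KO cells lay between 20 and 29. Over summed UMIs the difference was small: Mki67, a nuclear protein of cycling cells, was at 275.7 and 359.7 CPM and was the 1 gene of 52 past the 0.32 limit. Of 35 S phase genes 28 had a ratio above 0 and 5 were past the 0.32 limit higher, among them Pola1, the primase-coupled DNA polymerase (58.1 and 82.7 CPM).

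The G2/M share moved with depth and with mitochondrial share. Among cells with 8000 to 16000 UMIs it was 15.1% in control and 59.3% in KO, and among cells over 16000 UMIs 76.7% and 83.9%. Among cells with a mitochondrial share of 3% to 5%, it was 40.4% of 695 control cells and 35.1% of 787 KO cells, so the direction was the opposite there. With the filter at 5% instead of 10%, the difference between genotypes was 3.86 points. Under 3% lay 2 control and 1082 KO cells, of which 51.3% of the KO cells had 25 or more. Over 5% lay 219 control cells (7.76%) and 46 KO cells (93.5%). Depth, mitochondrial share and genotype cannot be told apart in these libraries. Phase is read from these genes alone, and a part from free RNA was not tested. Triad-positive cells had 35.7% and 45.3% with 25 or more, and Dntt-positive cells 45.04% and 59.96%.

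**Figure D5:**
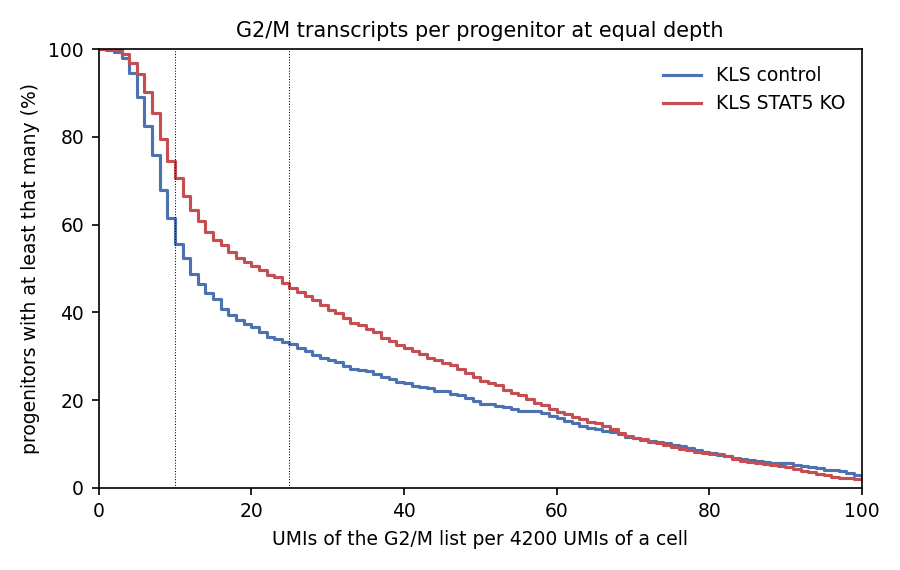
Share of progenitors (%, y) that held at least the number of G2/M UMIs on the x axis, per 4200 UMIs of a cell, in the control and KO libraries; dotted lines mark 10 and 25 UMIs. The KO curve lies above the control curve from 1 to 69 UMIs, with 45.6% against 32.8% at 25.

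Histone transcripts were divided between genes of the same clusters. Hist1h2ap was at 1061 CPM in control and 627.1 CPM in KO, and Hist1h2ae at 148.4 and 287.1 CPM. The linker histones Hist1h1b (53.2 and 89.2 CPM) and Hist1h1e (37.0 and 66.2 CPM) were higher in KO. These genes belong to families of close copies, and counting could split reads between them.

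Of the triad-positive, Dntt-positive and granule-rich cells, the progenitors were nearest to the triad-positive cells; Pf4-positive and Klf1-positive cells were not compared. Of 10031 genes, 0 (0%) were past 2-fold higher and 0 (0%) lower in progenitors in both libraries, beyond the genes of the rule. Against cells with Dntt, 17 of 10599 (0.16%) were higher and 18 (0.17%) lower in both libraries. The lipid carrier Apoe was at 224.4 CPM in control progenitors and 65.5 CPM in control Dntt-positive cells, and at 304.0 and 73.6 CPM in KO. The endothelial adhesion gene Esam (32.9 and 7.71 CPM in control) was also higher. Lower were Irf8 (26.9 and 106.6 CPM in control, 17.2 and 84.0 CPM in KO) and the activation receptor Cd69 (38.2 and 137.6 CPM in control). Against granule-rich cells 97 of 9297 (1.04%) were higher and 45 (0.484%) lower. Car2 (651.5 and 50.5 CPM in control) and Mycn (56.8 and 1.71 CPM) led the higher genes, and F13a1 (3.02 and 148.9 CPM), a monocyte coagulation factor, and Ly6c2 (1.01 and 184.0 CPM) were among the lower.

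Within the progenitors, cells with a Flt3 UMI held more Satb1, Wfdc17 and chemokine transcripts and less Apoe, Itga2b and Gata2 in both libraries. At 4200 UMIs, 257 of 916 control and 453 of 1915 KO cells had a Flt3 UMI. Satb1 was at 143.6 CPM with and 72.6 CPM without Flt3 in control, and at 132.4 and 69.5 CPM in KO. Apoe was at 79.7 and 295.5 CPM in control, and at 110.4 and 383.5 CPM in KO. The integrin Itga2b (CD41, of the megakaryocyte lineage) was at 25.01 and 60.3 CPM in control, and Gata2 at 86.2 and 154.6 CPM. Past 2-fold in both libraries were 1 gene of 5836 higher (0.0171%), Wfdc17, and 1 lower (0.0171%), Apoe. A split by the number of triad genes gave 0 (0%) higher and 0 (0%) lower past 2-fold. Cells with a Slamf1 UMI were few, 43 in control and 80 in KO. Apoe was higher with than without Slamf1 (520.5 and 220.9 CPM in control, 866.1 and 295.1 CPM in KO). Ccl4 was lower (11.1 and 78.3 CPM in control, 29.8 and 104.1 CPM in KO).

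The progenitors were also split by their count of G2/M UMIs. Between cells with 25 or more G2/M UMIs and the rest, 85 of 5791 genes (1.47%) were past 2-fold higher and 8 (0.138%) lower in both libraries. This split was made on the G2/M list, so its own genes and others that follow the cycle are a description. Its counts cannot be ranked against those of the splits above, which rest on few genes. Outside that list, Mycn was at 28.6 CPM in cells with 25 or more and 92.8 CPM in the rest in control, and at 35.1 and 99.3 CPM in KO. Ccnd2, the D-type cyclin most abundant here, was at 146.8 and 364.1 CPM in control and 141.7 and 327.5 CPM in KO. The lymphotoxin gene Ltb was at 35.7 and 131.8 CPM in control and 31.3 and 79.4 CPM in KO. The most unevenly spread genes at equal depth, by variance over mean (the Fano factor, 1 for pure counting), were Malat1 (9.52 in control, 10.0 in KO), Gm42418, Hmgb2, Hist1h2ap and Ifit1. Ifit1, an interferon-stimulated gene, had Fano factors of 4.06 and 6.26 at 16.7 and 9.15 CPM, and Ccl3 3.16 and 5.16, against medians of 1.02 and 1.03 over 8003 genes.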

How the data were processed

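The deposited files hold UMI counts per gene and barcode, unnormalized, made by the authors with Cell Ranger on GRCm38 (mm10), per the submitters' processing notes; the matrix headers name version 3.1.0. Strand handling is not given in the sources used here. The rule for the cells used UMIs of these libraries, and the members and gene lists were chosen with earlier results of these data known. UMIs of the 933 and 2124 cells were summed and divided by their total to CPM. Genes with at least 100 UMIs over both sums and a UMI in at least 2% of cells of the higher library were ranked by log2 ratio with 10 CPM added, leaving out hemoglobin, immunoglobulin, Xist, Ddx3y, Eif2s3y, Kdm5d, Uty, Stat5 and rule genes. The 12 highest and 12 lowest were named, with 8 each way against each neighbouring class, the 12 of largest Fano factor, markers, and the ends and defining genes of each of 27 lists; some genes that the rule names are not reported here. The samples have 1 library per group, so no test was run. Thinning to 4200 or 4500 UMIs used a fixed seed. Doublets were kept in; Scrublet marked 0 control and 2 KO cells by its own threshold, so it did not work here, and an alternative left out its top scores. Ratios and their intervals were checked on UMI sums simulated with counting error (Poisson) only. That check cannot show whether the intervals hold for genes spread unevenly among cells. Coordinates are from GENCODE M21 (GRCm38). Python 3.11.15, numpy 2.4.6, scipy 1.17.1, scanpy 1.11.5 and edgeR 4.0.16 (for TMM factors) were used.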

Additional observations from a re-analysis of the deposited data

Results flagged for a closer look

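For 10 of 634 list genes measured in both classes, the interval of the KO over control fold lay on opposite sides of 1 in the progenitors and in triad-positive cells. The same count was not made over all genes, so 10 cannot be set against a background. The difference between the classes was not tested, and intervals cover counting error only. They leave out uneven spread among cells. In progenitors the Fano factors were 6.70 in control and 3.11 in KO for Cd74, and 4.57 and 3.22 for Ube2c. Car1 was 9.50 times control in the progenitors and 0.0938 times in triad-positive cells, where control cells held 40.2 CPM; its UMIs lay in few cells. Cd74, the MHC class II invariant chain, was at 1.36 and 0.780 times control, and Cd52, a lymphocyte surface glycoprotein, at 1.11 and 0.792. Mllt3, a stem cell maintenance factor, was at 0.894 and 1.26, and the transcriptional co-regulator Cited2 at 0.885 and 1.16. Of the mitotic genes, 4 met this condition, each below control in the progenitors and above it in triad-positive cells: Ube2c at 0.853 and 1.09, Plk1 at 0.859 and 1.16, Cenpa at 0.901 and 1.08, and Nusap1 at 0.943 and 1.11. The 52 measured G2/M genes together had a median log2 ratio of -0.0043 in the progenitors, 25 above 0 and 27 below. The ribosomal protein gene Rpl10a was at 0.963 and 1.03 times control.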

How the results depend on the processing

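Alternatives for cell filters, barcodes, thinning, the rule's limits, scaling, pseudocount, gene filters and depth were planned, and those on G2/M count limits, on cells with few or many G2/M UMIs and on cells rich in other lineages' genes were added after seeing the data. The KO minus control difference in the member share of KLS cells, 0.45 points, was -1.89 with barcodes of stromal libraries kept, -9.42 with thinned membership, -2.48 with a granule limit of 0.2%, 2.71 with 0.8%, and 3.09 where none of the triad was allowed. The Stat5 log2 ratio, -3.01, was -2.76 at 0.2%, -1.98 in cells with under 10 G2/M UMIs and -3.49 in cells with 25 or more. Genes past 2-fold, 9 higher and 6 lower, were 29 and 22 with 1 CPM added, 1 and 1 with 50 CPM, 18 higher with none of the triad, and 15 lower with barcodes of stromal libraries kept, where 4 of the 12 lowest-ranked genes were shared. The difference in cells with 25 or more G2/M UMIs, 12.9 points, was 3.86 at a mitochondrial limit of 5%, 18.9 with none of the triad, 23.4 between 5000 and 20000 UMIs, and 8.00 for a limit of 40 UMIs. With none of the triad (64 and 365 cells), the chemokine median was -0.15, Cish 0.10 and Ccl9 -0.039; Pim2 was 0.082 in cells with 25 or more G2/M UMIs. The cause was not tested. Of the values past a limit, no other turned direction in these alternatives, while medians near 0, such as that of stem cell genes (-0.23 to 0.21), crossed it. For single genes and list medians 1705 values stayed within the spread allowed, 235 moved and 4 reversed. TMM and median-of-ratios scaling shared all 12 highest and 12 lowest genes. Cells with at most 1 G2/M UMI were not run, since 5 control and 5 KO cells qualified. No paired analysis was possible because each group is 1 library without replicate numbers. No replicate could be left out. Depth limits genes under about 100 UMIs and shares of cells with a UMI.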
